A study of Mus musculus with 19 samples.

Results

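The imprinted loci of mouse chromosome 2 that hold *Gnas* with its antisense transcript *Nespas*, *Nnat* and *Mcts2* were examined for 3 repressive histone modifications in embryonic stem cells (ESCs) with and without the DNA methyltransferase gene *Dnmt1*. The members were all tiles of 2 kb that start within 3 regions of NCBIM37, namely chr2:174090001-174190000 for *Gnas* and *Nespas*, chr2:157370001-157410000 for *Nnat* and chr2:152480001-152540000 for *Mcts2*, which lies inside *H13*. The regions held 50, 20 and 30 tiles, in all 100 of the 1327469 tiles of the series. ChIP-seq, the sequencing of DNA pulled down with an antibody to a histone mark, covered H3K9me3, H3K27me3 and H3K9me2 at days 4 and 8 after Cre-mediated deletion. Each mark had 1 control and 1 DNMT1KO library at day 4 and 2 of each at day 8, and 1 input library (chromatin without immunoprecipitation) came from control cells. The labels call the genotypes Wildtype and Dnmt1 KO and the background strain of all cells E14, whereas the methods describe *Dnmt1* loxP/loxP ESCs of strain C57BL/6. The methods speak of a single measurement and make no significance calls for histone marks, whereas the labels number 2 libraries a group at day 8. Nothing says that these came from separate cultures, so the p-values here measure the spread between these libraries only, which may be technical. Reads were not assigned to a parental allele, so a value is the sum over both chromosomes.

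Imprinted genes are expressed from 1 parental allele because a control region carries DNA methylation from the egg or the sperm. The methylated copy of such a region is bound by ZFP57, a zinc finger protein that recognises the methylated sequence TGCCGC and brings KAP1 and SETDB1, the enzyme that writes H3K9me3. H3K27me3 is the mark of Polycomb and lies mostly on unmethylated CpG islands, and H3K9me2 covers broad silent domains. *Gnas* encodes the stimulatory G protein alpha subunit, and its locus has several promoters in the order Nesp (a neuroendocrine secretory protein), Nespas/Gnasxl (the antisense RNA and the extra-large G protein), exon 1A and the main *Gnas* promoter. The Nespas/Gnasxl and exon 1A regions are known to be methylated on the maternal allele and Nesp on the paternal allele. *Nnat* (neuronatin, a membrane proteolipid) lies in an intron of *Blcap*, and *Mcts2* is a retrogene in an intron of *H13*. Both are paternally expressed from islands that are methylated on the maternal allele.

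The following stretches of the reference hold matches to TGCCGC, which were counted as a description only. They are 150 bases each on the plus strand of NCBIM37, chosen as the window with most matches to TGCCGC on either strand within the tile and outside annotated untranslated regions, and the matches are in capitals (GCGGCA is a match on the minus strand, and overlapping matches were counted separately). The first lies in a non-coding *Nnat* exon (chr2:157386029-157386178), the second upstream of the *Nespas* start (chr2:174121347-174121496), the third in the coding exon of Gnasxl (chr2:174124913-174125062), the fourth upstream of the exon 1A starts (chr2:174152783-174152932) and the fifth upstream of the *Mcts2* start (chr2:152512549-152512698).
Nnat: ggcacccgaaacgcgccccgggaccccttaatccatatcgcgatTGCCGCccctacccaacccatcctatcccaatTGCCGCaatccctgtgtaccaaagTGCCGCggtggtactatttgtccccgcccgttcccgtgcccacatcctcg
Nespas: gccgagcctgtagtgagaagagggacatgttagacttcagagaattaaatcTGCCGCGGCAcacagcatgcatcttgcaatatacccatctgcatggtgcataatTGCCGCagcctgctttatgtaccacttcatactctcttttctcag
Gnasxl: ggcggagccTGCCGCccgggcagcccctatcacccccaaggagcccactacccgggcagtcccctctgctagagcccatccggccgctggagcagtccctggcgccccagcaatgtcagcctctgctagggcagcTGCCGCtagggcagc
Gnas exon 1A: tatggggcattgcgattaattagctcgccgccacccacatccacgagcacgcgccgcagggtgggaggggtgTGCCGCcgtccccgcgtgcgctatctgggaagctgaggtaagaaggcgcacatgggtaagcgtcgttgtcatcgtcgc
Mcts2: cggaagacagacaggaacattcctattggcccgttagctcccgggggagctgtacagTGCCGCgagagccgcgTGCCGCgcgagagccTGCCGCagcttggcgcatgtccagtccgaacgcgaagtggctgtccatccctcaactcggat

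The whole tiles held 5 matches at the *Nnat* island, 5 at the *Nespas* start, 6 in the Gnasxl exon, 2 at exon 1A and 3 at *Mcts2*. A match occurred in 26 of the 100 member tiles and in 10.9% of all tiles with sequence. Of the 9 member tiles with at least 80 CpG sites 8 held a match, where 66.6% of all such tiles did. At least 5 matches were found in 3 member tiles, all 3 of which were CpG-rich, and in 2.81% of all CpG-rich tiles. H3K9me3 fell in all 3 of these tiles, as described next, and 5 of the 7 tiles in which it fell held at least 1 match. Of those 7 tiles 3 were CpG-rich, the class in which 66.6% of all tiles held a match. Whether matches went with the fall beyond CpG content was not tested. A match is a run of letters only, and binding was not measured.

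The libraries held 14.6 to 26.2 M reads in tiles, except for H3K9me3 in DNMT1KO replicate 1 of day 8 with 5.67 M. Levels are given as reads in a tile per M reads of the library (RPM), where M stands for mega. Start tiles of 6 pluripotency genes had 0.0740 to 2.08 H3K27me3 RPM in control cells and those of 6 developmental Polycomb targets 2.71 to 19.8, the check of the labelled ESC identity that these marks allow. The tile of *Dnmt1* with the largest drop in reads (chr9:20744001-20746000), chosen on these values, held 49 control and 1 DNMT1KO reads over all ChIP libraries of day 8, and 23 and 9 at day 4. The H3K9me2 library of DNMT1KO replicate 2 at day 8 stood apart, with a standard deviation of 0.580 of its log2 values over tiles with at least 10 input reads against 0.873 to 1.01 in the other 5 libraries of that mark.

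H3K9me3 at *Nnat* was a peak of 8 kb (chr2:157382001-157390000) in control cells that fell by 2.31 to 2.97 on the log2 scale in DNMT1KO cells at day 8. The peak spanned 4 tiles, from the last exon of *Blcap* over the *Nnat* start to its 3′ end. The tile with the annotated *Nnat* starts (chr2:157384001-157386000, ENSMUSG00000067786, 59 CpG sites) held 9.06 and 5.53 H3K9me3 RPM in the control replicates of day 8 and 1.59 and 0.514 in the DNMT1KO replicates. The input had 0.894 there, so both controls were far above the input and 1 DNMT1KO library was below it. The mean was 7.29 RPM in control and 1.05 in DNMT1KO. Summed reads, in which the shallow DNMT1KO replicate 1 counts for less, were 9.61-fold lower (95% limits 6.04 to 16.2, exact binomial limits, which cover counting error only). The log2 change was -2.97 (SE 0.388, limma adjusted p = 0.000929), and it was -3.78 without DNMT1KO replicate 1 and -2.16 without DNMT1KO replicate 2.

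The next tile downstream, with 84 CpG sites, was the only CpG-rich tile of the region and holds the first sequence above. It had 7.67 and 5.16 RPM in control and 1.94 and 0.719 in DNMT1KO replicates, a log2 change of -2.41 (SE 0.370, limma adjusted p = 0.00641). The recovered reads were 144 and 100 against 11 and 14, and the groups did not overlap. The tile over the 3′ end of *Nnat* (chr2:157388001-157390000) went from 4.64 and 3.46 to 0.882 and 0.360 RPM, and that over the last *Blcap* exon (chr2:157382001-157384000) from 4.64 and 2.89 to 1.06 and 0.514. Their log2 changes were -2.83 (limma adjusted p = 0.00145) and -2.31 (limma adjusted p = 0.0111). *Blcap* encodes a small membrane protein and runs antisense to *Nnat*. Its upstream starts (chr2:157392001-157394000, ENSMUSG00000067787) had 11 and 6 H3K9me3 reads in control, below the input at 0.655-fold, and 0 and 1 in DNMT1KO. The log2 change there was -2.24 (SE 0.867) and did not pass the test (limma adjusted p = 0.582).

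**Figure D1:**
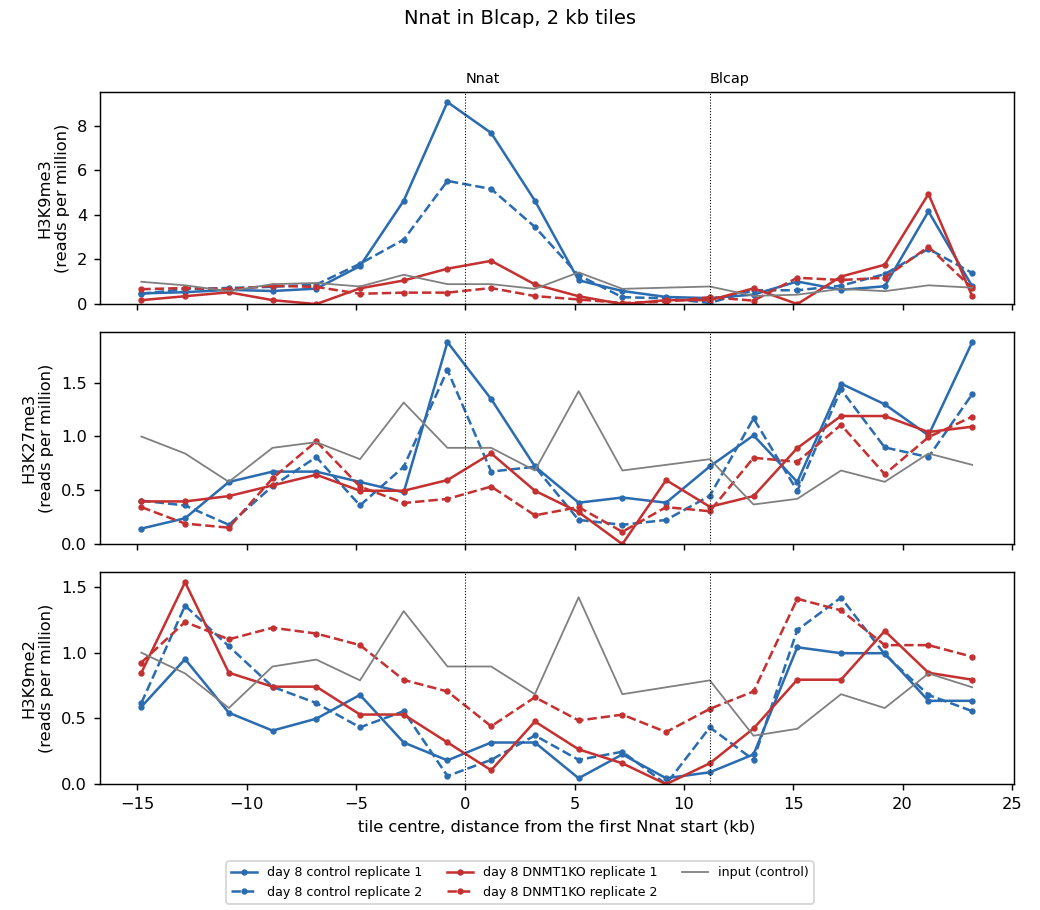
Reads per M reads (RPM) in each tile of 2 kb for H3K9me3, H3K27me3 and H3K9me2 at day 8 (blue: control, red: DNMT1KO, solid: replicate 1, dashed: replicate 2, grey: input) by distance of the tile centre from the first *Nnat* start. The H3K9me3 peak over *Nnat* is present in both controls and lower in DNMT1KO. In its CpG-rich tile replicate 1 of DNMT1KO (1.94 RPM) stays above the input (0.894) and replicate 2 (0.719) lies below it. The peak at the right edge is kept in all 4 libraries.

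A second H3K9me3 tile of the *Nnat* region, upstream of *Blcap* (chr2:157406001-157408000), was named after its values were seen. It held 4.16 and 2.48 RPM in control and 4.94 and 2.57 in DNMT1KO replicates, so the groups overlapped. Its log2 change was 0.15 (SE 0.351, limma adjusted p = 0.937), and the ratio of summed reads had limits of 0.699 to 1.25. The tiles on either side of the 4 called ones were also lower in DNMT1KO but did not pass the test, at -1.62 (chr2:157380001-157382000, limma adjusted p = 0.440) and -2.12 (chr2:157390001-157392000, limma adjusted p = 0.484).

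In the *Gnas* locus H3K9me3 was highest over the *Nespas* start and Gnasxl. It was called lower there in 3 neighbouring tiles (chr2:174120001-174126000, 6 kb), by 2.33 to 3.36 on the log2 scale. The highest level was in the tile of the coding Gnasxl exon (chr2:174124001-174126000, ENSMUSG00000027523, 147 CpG sites). It held 11.5 and 5.84 RPM in control and 0.882 and 0.719 in DNMT1KO replicates, with 0.421 in the input. Control replicate 1 was above control replicate 2, and both DNMT1KO libraries were well below either. This was 11.4-fold lower (95% limits 7.19 to 19.2), with a log2 change of -3.36 (SE 0.341, limma adjusted p = 5.45e-05).

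The *Nespas* start tile (chr2:174120001-174122000, ENSMUSG00000086537, 83 CpG sites) held 10.2 and 4.75 RPM in control and 2.47 and 0.771 in DNMT1KO replicates, against 1.05 in the input. Its log2 change was -2.34 (SE 0.405, limma adjusted p = 0.0296). The Gnasxl start tile (chr2:174122001-174124000) went from 9.33 and 4.34 to 1.94 and 0.822 RPM, a log2 change of -2.33 (SE 0.378, limma adjusted p = 0.0127). In both tiles the shallow DNMT1KO replicate 1 kept more signal than replicate 2 and stayed above the input. The tile just outside the threshold (chr2:174126001-174128000) held 62 and 36 control reads and 4 and 2 DNMT1KO reads, a log2 change of -3.20 (SE 0.576, limma adjusted p = 0.050, above the threshold by less than the rounding). Upstream tiles were also lower but not called. The tile chr2:174118001-174120000 held 68 and 34 control and 4 and 11 DNMT1KO reads. The tile chr2:174114001-174116000 held 35 and 25 against 1 and 4 (log2 change -3.03, SE 0.573, limma adjusted p = 0.0853). The run of called tiles was 14 kb with voom and 4 kb with each library centred on its median.

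**Figure D2:**
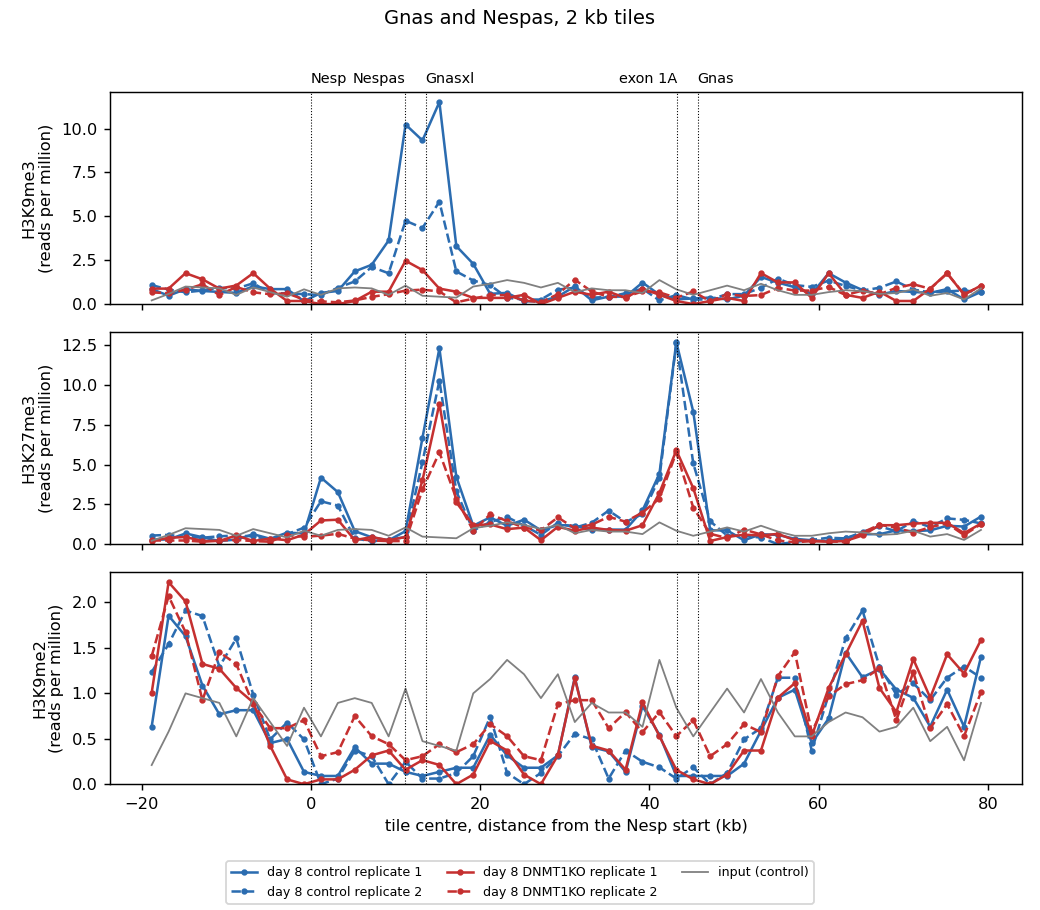
RPM in each tile of 2 kb across *Gnas* and *Nespas* at day 8, as for *Nnat*, by distance of the tile centre from the Nesp start. The highest H3K9me3 lies over Nespas and Gnasxl, and H3K9me3 is below the input at exon 1A, where H3K27me3 reached 12.7 and 12.6 RPM in the controls.

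At the other promoters of the locus H3K9me3 in control cells was near or below the input (1.10-fold at Nesp). Exon 1A (chr2:174152001-174154000, 110 CpG sites) held 5 and 10 control reads and 1 and 7 DNMT1KO reads at day 8, which is 0.465 and 0.318 times the input level. The main *Gnas* promoter tile (chr2:174154001-174156000, 208 CpG sites) held 6 and 5 control reads and 0 and 14 DNMT1KO reads, and Nesp (chr2:174110001-174112000, 129 CpG sites) 12 and 10 against 0 and 3. None of these 3 tiles passed the test (limma adjusted p = 0.876, 0.958 and 0.588), and at counts this low a change of moderate size was not detectable. At Nesp the log2 change was -1.88 (SE 0.750). The ratio of summed reads there was 0.207 (limits 0.0396 to 0.69, which cover counting error only).

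At *Mcts2*, a retrogene related to a translation re-initiation factor, none of the 3 marks was above the input in control cells. The tile with its start (chr2:152512001-152514000, ENSMUSG00000042814, 82 CpG sites) held 12 and 10 H3K9me3 reads in control and 2 and 16 in DNMT1KO replicates of day 8, with 15 in the input. At day 4 it held 7 and 7. The log2 change at day 8 was -0.09 (SE 0.583, limma adjusted p = 0.978), and the limits of the ratio, 0.627 to 2.42, leave room for a change in either direction. H3K27me3 had 10 and 11 control and 12 and 11 DNMT1KO reads, and H3K9me2 12 and 6 against 6 and 20. Reads that fit *Mcts2* and its parent gene equally well are lost to the mapping filter. The input count of the tile equalled its median of 15 over all tiles. The gene (chr2:152512884-152513676) fills only part of the tile, so that count cannot show whether reads over it were kept. The extent of such a loss was not tested. The tile of *H13* named in the rule for this region, upstream of *Mcts2* and without an annotated start, held 10 and 5 H3K9me3 reads in control and 1 and 10 in DNMT1KO. None of the 30 tiles of the region was at least 2-fold above the input for H3K9me3 in control cells.

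**Figure D3:**
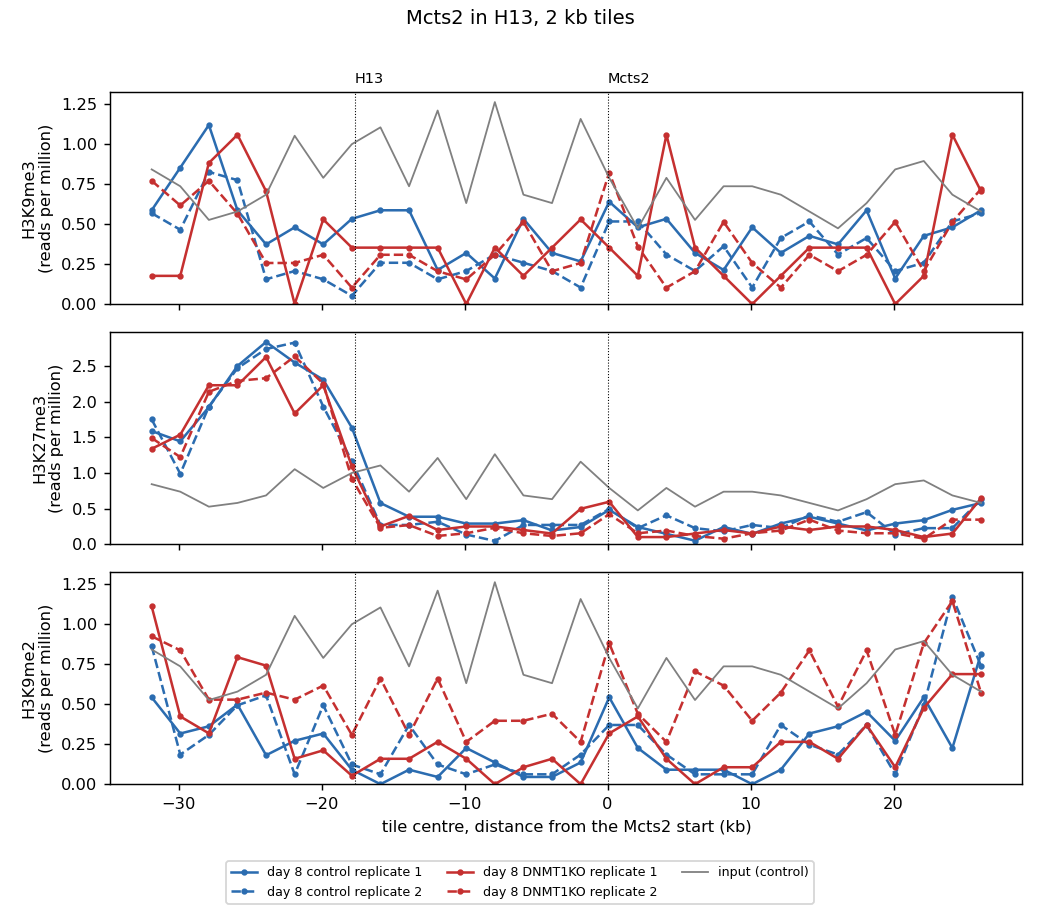
RPM in each tile of 2 kb around *Mcts2* and *H13* at day 8, as for *Nnat*, by distance of the tile centre from the *Mcts2* start. H3K27me3 upstream of *H13* gives the only tiles at least 2-fold above the input and reached 2.84 and 2.74 RPM in the controls and 2.63 and 2.33 in DNMT1KO in 1 of its tiles.

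In all, H3K9me3 was lower in 7 of the 100 member tiles and higher in 0, where 0.00812% of all 1256638 tiles tested were called lower. The median change over the members was -0.33, and -0.04 over all tiles tested. Of 11345 tiles elsewhere with a control mean of at least 50 reads, 85 were called lower and the median change was -0.16, so most tiles with much H3K9me3 were not called. Among 48 CpG-rich tiles with that much H3K9me3, 14 were called lower, 3 of them members. The median of the DNMT1KO libraries lay 0.14 below that of the controls on the log2 scale. With each library centred on its median 4 members were called, of 55 tiles called in all. With GC content corrected for, 0 tiles were called anywhere, and the 7 members had log2 changes of -2.46 to -3.15 and limma adjusted p of 0.151 to 0.805. The calls rest on variances moderated along the signal trend. Without the trend no tile was called, members included (limma adjusted p = 0.773 for all 7). The number of calls also depended on which library was left out, and in these fits the group left with 1 library is assumed to vary like the other. Without control replicate 1, the higher of the controls, 2 members were called, at the *Nnat* start (-2.61, limma adjusted p = 0.0127) and the Gnasxl exon (-2.87, limma adjusted p = 0.00343), while the *Nespas* start was at -1.78 (limma adjusted p = 0.750). Without DNMT1KO replicate 2, 21 members were called, in a fit that called 77985 tiles in all, and the 7 changes ran from -1.50 to -3.22. Without the shallow DNMT1KO replicate 1, the 7 changes ran from -2.83 to -3.78.

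**Figure D4:**
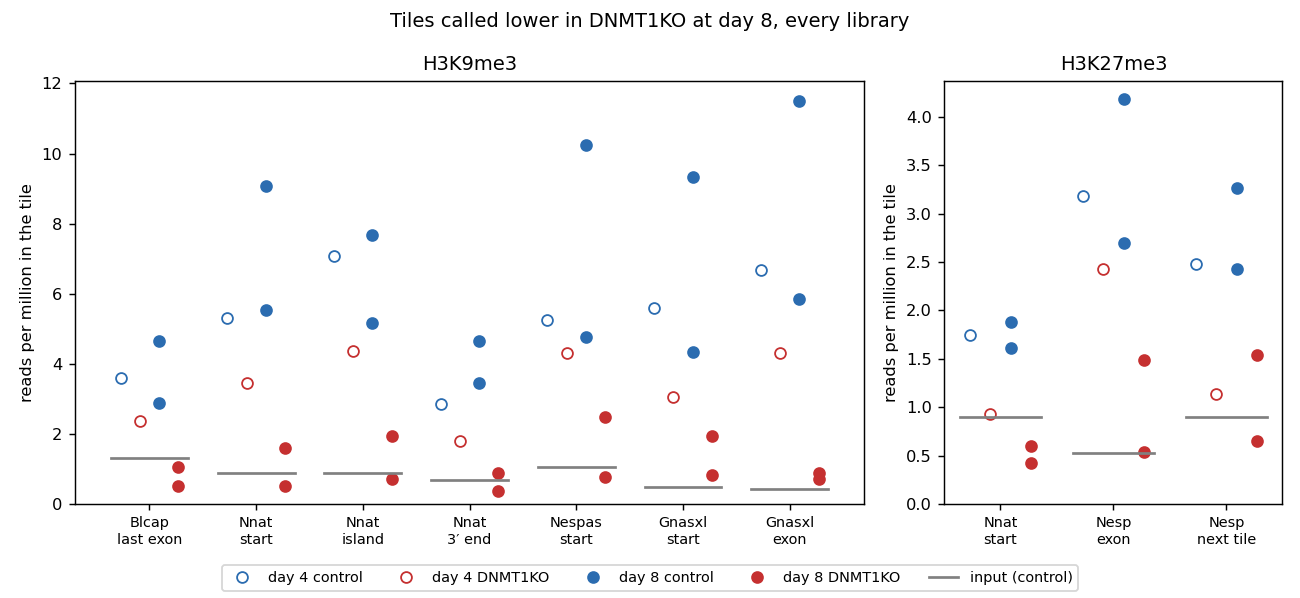
RPM of every library in the tiles whose mark fell at day 8 (left: H3K9me3, right: H3K27me3, open: day 4, filled: day 8, blue: control, red: DNMT1KO, grey bar: input). In each tile the DNMT1KO points of day 8 lie below both controls of that day, and the single DNMT1KO point of day 4 lies below the day 4 control.

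At day 4 the same tiles were closer to control, but they were chosen by their calls at day 8. Their day 8 ratios are therefore low partly by that choice. The *Nnat* start tile held 5.30 RPM in control and 3.45 in DNMT1KO (ratio 0.652, limits 0.476 to 0.891), the Gnasxl exon 6.66 and 4.30 (0.646, 0.488 to 0.854) and the *Nespas* start 5.24 and 4.30 (0.822, 0.611 to 1.11). With 1 library a group there is no replicate check, and the limits cover counting error only. Over the 4 *Nnat* tiles together the ratio was 0.637 (0.540 to 0.751) at day 4 and 0.134 at day 8, and over the 3 *Nespas* and Gnasxl tiles 0.667 (0.563 to 0.789) and 0.131 (0.102 to 0.165). The difference between the days was tested in limma with the single day 4 libraries assumed to vary like those of day 8, and for H3K9me3 0 of 1258328 tiles passed (0.0%), members included. The smallest unadjusted p among members was 0.00013, at the Gnasxl exon (-2.73, SE 0.591, limma adjusted p = 1.0), and 14 of 100 members had an unadjusted p under 0.05, where 2.23% of all tiles did. Of 68 members with a mean of at least 10 reads, 2 were at least 2-fold lower at day 4, where 3.09% of all such tiles were, and none of the 7 tiles that fell at day 8 was among them.

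H3K27me3 was above the input at the Nesp, Gnasxl, exon 1A and main promoters of *Gnas*, and fell at Nesp. In the Nesp tile (chr2:174110001-174112000) it went from 4.18 and 2.69 RPM in control to 1.49 and 0.535 in DNMT1KO replicates, against 0.526 in the input. This is 3.60-fold lower (limits 2.55 to 5.16), with a log2 change of -1.91 (SE 0.341, limma adjusted p = 0.00502). The neighbouring tile (chr2:174112001-174114000) went from 3.27 and 2.42 to 1.54 and 0.649, a log2 change of -1.50 (SE 0.322, limma adjusted p = 0.0311). The groups did not overlap in either. The *Nnat* start tile, where the level was low, went from 1.88 and 1.62 to 0.595 and 0.420 (log2 change -1.80, SE 0.342, limma adjusted p = 0.0100).

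The strongest H3K27me3 of the locus was at exon 1A (chr2:174152001-174154000) with 12.7 and 12.6 RPM in control and 5.90 and 5.77 in DNMT1KO replicates. The log2 change of -1.12 (SE 0.483) missed the threshold at a limma adjusted p of 0.439, although the replicates lay close and the ratio of summed reads was 0.460 (limits 0.396 to 0.533). The main *Gnas* promoter tile went from 8.32 and 5.07 to 3.52 and 2.29 (-1.19, SE 0.341, limma adjusted p = 0.161). The Gnasxl exon, where H3K9me3 was 11.4-fold lower, held H3K27me3 at 12.3 and 10.3 in control and 8.82 and 5.77 in DNMT1KO replicates (-0.66, SE 0.506, limma adjusted p = 0.726). Both marks were above the input in the same control tile, at 20.6-fold for H3K9me3 and 26.8-fold for H3K27me3, and whether they lay on the same chromosome was not measured. The input held 8 reads in that tile and 20 in the *Nespas* start tile, so such folds rest on few reads of 1 library. The Gnasxl start tile, between the exon and the *Nespas* start tile, also held both marks in control. Its H3K27me3 was 6.69 and 5.16 RPM against 0.473 in the input. The *Nespas* start tile, upstream of both, had H3K9me3 at 7.12-fold and H3K27me3 at 0.602-fold of the input.

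H3K27me3 was called lower in 3 of 100 members and in 0.182% of all 1255417 tiles tested. Among all 9533 CpG-rich tiles tested, 10.1% were called lower and the median change was -0.97. Of the 3653 CpG-rich tiles with a day 8 control mean of at least 50 H3K27me3 reads, 19.7% were called lower, with a median change of -1.10. The changes at exon 1A and the main *Gnas* promoter lay near that median. Of the 9 CpG-rich members 1 was called lower, and their median change was -1.05. Without the trend in the variances no H3K27me3 tile was called, members included. The call at Nesp was lost when GC content was corrected for (-1.10, limma adjusted p = 0.339) and when DNMT1KO replicate 2 was left out (-1.18, limma adjusted p = 0.0769). That in the neighbouring tile was lost with median centring (limma adjusted p = 0.0809), with GC content corrected for (limma adjusted p = 0.0552) and without DNMT1KO replicate 2 (-0.87, limma adjusted p = 0.273) or control replicate 1 (-1.28, limma adjusted p = 0.214), and the *Nnat* call was lost without control replicate 1 (-1.69, limma adjusted p = 0.164). At day 4, 4 of 61 members with a mean of at least 10 reads were at least 2-fold lower, where 3.98% of all such tiles were. They included the called tile next to Nesp (ratio 0.457, limits 0.266 to 0.760) and the 2 tiles upstream of the Nesp tile. Those 2 had ratios of 0.348 (chr2:174108001-174110000, limits 0.154 to 0.721) and 0.488 (chr2:174106001-174108000, limits 0.171 to 1.24). The remaining tile was in the *Nnat* region (chr2:157378001-157380000, ratio 0.461, limits 0.163 to 1.16). The Nesp tile itself, called at day 8, was not among them (ratio 0.763, limits 0.517 to 1.115). These limits cover counting error only.

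Upstream of *H13*, a gene for a signal peptide peptidase, lay 5 tiles with H3K27me3 at least 2-fold above the input, none of which was called. The highest (chr2:152488001-152490000) held 2.84 and 2.74 RPM in control and 2.63 and 2.33 in DNMT1KO replicates of day 8 (log2 change -0.17, SE 0.281, limma adjusted p = 0.90). Another (chr2:152484001-152486000) held 1.92 and 1.93 in control and 2.23 and 2.14 in DNMT1KO. The ratios of summed reads had limits of 0.677 to 1.15 and of 0.837 to 1.53, which cover counting error only.

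H3K9me2 was lower in the CpG-rich members than in the others, and below the input in both. The 9 CpG-rich members averaged 0.176 and 0.137 RPM a tile in the control replicates of day 8 and the other 91 members 0.494 and 0.582, while the input had 0.760 and 0.780. Its highest tile by control value (chr2:174094001-174096000), upstream of Nesp, held 1.63 and 1.91 in control and 2.01 and 1.67 in DNMT1KO replicates, and the groups overlapped. H3K9me2 was called in 0 of 100 members and in 0.0% of all 1254661 tiles tested in limma, where 80852 tiles had an unadjusted p under 0.05, and in 0 members under any other setting run, among them voom, which called 12 tiles elsewhere. In the CpG-rich members DNMT1KO replicate 1 averaged 0.124 and replicate 2 averaged 0.465, replicate 2 being the library with the flat profile described above. Over whole regions H3K9me2 averaged 0.588 and 0.670 RPM a tile in control and 0.663 and 0.780 in DNMT1KO replicates at *Gnas*, where the groups overlapped. At *Nnat* it averaged 0.486 and 0.592 in control and 0.603 and 0.887 in DNMT1KO, and at *Mcts2* 0.247 and 0.296 against 0.298 and 0.572, so that replicate 1 was just above both controls and replicate 2 well above them. The median change over the members was 0.46, and it was 0.01 over all tiles and 0.93 over CpG-rich tiles. At exon 1A, for example, the counts were 2 and 1 in control and 3 and 12 in DNMT1KO. The part of that library's profile in these values was not tested.

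Across the 18 ChIP libraries, the deposited values of the *Nnat* start tile were most like those of other imprinted genes. Of 12575 protein-coding genes outside the regions with a mean of at least 10 reads in their start tile, the 5 with the highest Pearson correlation to it were *Nap1l5* (0.915), *Peg10* and *Sgce* (0.893 for the tile that both starts share), *Plagl1* (0.890) and *Zrsr1* (0.870). For the *Nespas* start tile they were *3110070M22Rik* and *Peg10* (both 0.934), *Sgce* in the same tile, *Zrsr1* (0.929) and *Peg3* (0.927). The level of *3110070M22Rik* differed from the others in that its H3K9me3 was 24.1 RPM in control and 21.7 in DNMT1KO, while *Peg3* went from 7.28 to 1.21. For *Mcts2* the highest correlation was 0.674, with the vomeronasal receptor gene *Vmn1r225*, at 0.838 and 0.753 H3K9me3 RPM. Libraries of 1 mark share their profile, so these correlations describe likeness only.

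A list of 28 other imprinted genes gave 26 genes with an annotated start, in 72 tiles. H3K9me3 was called lower in 8 of these tiles, which held starts of 8 genes: *Grb10*, *Inpp5f* (2 tiles), *Nap1l5*, *Peg10* with *Sgce*, *Peg3*, *Plagl1* and *Zrsr1*. Their changes ran from -2.24 at *Peg10* to -3.76 at *Zrsr1*, and the changes at *Nnat* and *Nespas* lay within that range. The median change over the 72 tiles was -0.30, and it was -0.04 over all tiles. H3K27me3 was called lower in 1 of the 72, at *Airn* (-2.24), and its median change was -0.39. The list was chosen with earlier results of these data known, so its counts are not independent evidence.

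**Figure D5:**
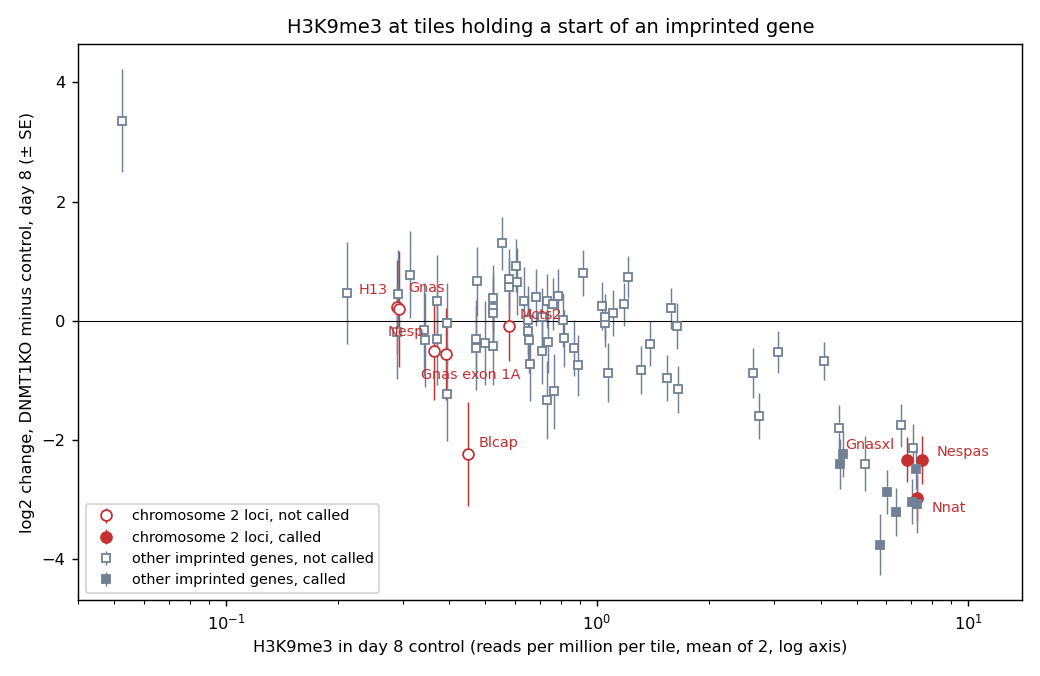
Log2 change of H3K9me3 at day 8 (DNMT1KO minus control, bars are SE) against the control level in RPM per tile (log axis) for tiles with a start of a chromosome 2 gene (red circles) or another imprinted gene (grey squares), filled where called. *Nnat*, *Nespas* and Gnasxl lie with the called genes at high control levels, and *Mcts2*, exon 1A and the main *Gnas* start lie at low levels and were not called. *Blcap*, also at a low level and not called, lies at -2.24 (SE 0.867).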

How the data were processed

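The authors trimmed reads with Trim Galore, aligned them with Bowtie2 2.2.9 to NCBIM37 (mm9), discarded alignments with a mapping quality under 20 and deposited the log2 of observed over expected reads for each tile of 2 kb (the methods give another tile size). Input was not subtracted, and removal of duplicates is not stated. Low values stepped in whole reads in 100% of cases (tolerance 0.1 reads), and empty tiles carried the value that 0.9 reads would give. Recovered reads gave RPM and exact binomial 95% limits, which cover counting error only. Columns of other samples numbered 0.

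Day 8 groups (2 against 2) were compared on the deposited values with limma 3.58.1 in R 4.3.3 (moderated variances with trend), with Benjamini-Hochberg adjustment over all tiles tested and a threshold of 0.05. The fit was tested on simulated data. Annotation was GENCODE M1. Tiles were named if they held at least 80 CpG sites or an annotated start, had the highest control value of a region and mark, were called, or were given in the rule. Members, lists and tests were chosen with earlier results of these data known. Alternatives were voom on recovered reads, another prior, a read filter, centring, GC correction, a replicate block, no trend and leaving out each library. Same-numbered libraries are not said to be paired.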

Additional observations from a re-analysis of the deposited data

How the results depend on the processing

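H3K9me3 was called in 7 member tiles (0.00851% of all tiles tested, either direction), and in 0 without the variance trend and with GC correction. It was called in 4 after median centring (0.00438%), and in 11 with voom (0.0386%) and with a prior of 2 reads (0.029%). With a mean of at least 10 reads it was called in 12 of 51 members tested (0.181%). Leaving out 1 library gave 2 (without control replicate 1) to 21 (without DNMT1KO replicate 2). H3K27me3 was called in 3 (0.244% of all tiles tested), in 0 without the trend and in 1 with GC correction (0.114%). With a replicate block, H3K9me3 was called in 1 (0.000557% of all tiles) and H3K27me3 in 6 (2.2%). With the block and GC correction, H3K9me3 was called in 12 (0.0516%). H3K27me3 was then called in 5 (1.93%), of which 4 were lower and 1 higher. Same-numbered libraries deviated together with correlations of 0.119 (H3K27me3), 0.033 (H3K9me2) and 0.059 (H3K9me3), and there are only 2 pairs, so the numbers were not taken as pairing. H3K9me2 and the difference between days gave 0 member calls under every setting run. The 10 called changes kept their direction in all 70 values from 7 alternatives (prior, centring, GC correction and each library left out). They were chosen for their falls in these same libraries, so the kept direction is no independent support. Of the 10, 9 lost the call with GC correction and 5 with median centring. The cause of these losses was not tested. The 7 alternatives leave out the replicate block and the fit without the trend, in which no member was called. At 10 reads or fewer a tile, depth limits what can be called.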
